A study of Mus musculus with 12 samples.

Results

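The 10 genes described here encode the core of the microRNA (miRNA) pathway: the Argonaute proteins (Ago1 to Ago4), the GW182 proteins that bind them (Tnrc6a, Tnrc6b and Tnrc6c), and the proteins that make miRNAs (Dicer1, Drosha and its partner Dgcr8). They were chosen by name from 19057 genes named on the array, and all 30 of their probes were examined rather than the brightest alone. A primary miRNA transcript is cut in the nucleus by Drosha together with Dgcr8, and the resulting hairpin is cut in the cytoplasm by Dicer1 into a short duplex. An Argonaute protein keeps a strand of this duplex as a guide to target mRNAs, and GW182 proteins recruit the enzymes that repress and degrade those mRNAs. Ago2 is the Argonaute best known for slicing its targets, and the family as a whole can silence targets without cutting.

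The miRNA induced in these cells is shown first, since the induced groups are named for the time of its induction. A miRNA pairs with targets mainly through its seed, bases 2 to 8, which is in capitals in the mature arms. In the hairpin the capitals mark both mature arms. The sequences are those of RefSeq for the mouse gene Mir184 (chr9:89802260-89802328, GRCm38.p6, minus strand).
mmu-miR-184-3p: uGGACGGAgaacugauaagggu
mmu-miR-184-5p: cCUUAUCAcuuuuccagccagc
Mir184 hairpin: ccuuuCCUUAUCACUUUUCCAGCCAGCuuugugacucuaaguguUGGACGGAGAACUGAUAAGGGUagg

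MIN6 is a mouse insulinoma line with features of pancreatic β cells, grown here as 6 groups with a pair of Illumina MouseWG-6 v2 arrays each. Induced cells held an rtTA plasmid and a tetO-184 plasmid, brought in by transient transfection, and were exposed to doxycycline at 1 µg/ml over 16, 24, 48 or 72 hr. The transfected control had the plasmids without doxycycline, and the untransfected control had lipofectamine and doxycycline without plasmids. The design text speaks of triplicates where 2 arrays per group were analysed here, and when the controls were harvested is not stated in the labels.

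The arrays lay on 2 slides with a full set of groups on each, and since the groups had the same positions on both slides, array position and group cannot be told apart. On each array 15243 to 16737 of 45281 probes had a detection p under 0.01, and the 17556 probes that did so on at least 2 arrays were kept for testing. Of 15 listed β-cell markers 12 were annotated, and 11 of these were detected on all 12 arrays, among them Ins2, Iapp and Pdx1. Of 25 listed markers of other pancreatic, connective, immune and vessel cells 22 were annotated and 5 had a kept probe (Gcg, Irx2, Ppy, Amy2a5 and Krt7), while no marker of delta cells, mesenchyme, immune cells or endothelium had one. The summed signal of the markers of other cells was 5563 to 8680 in the 72 hr cells and 9154 to 13548 at 48 hr, against 18845 to 27976 in the transfected control. That of the β-cell markers was 114410 to 131728 at 72 hr, against 127496 to 159895 in the transfected control. The part of either sum in the 72 hr values below was not tested. In whole-culture RNA, fewer cells of a type and less RNA per cell cannot be told apart.

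Of the 30 probes 20 were kept, or 66.7%, against 38.8% of all probes on the array. In all, 17 were detected on every array, 10 on none, and 3 on some arrays. The kept probes came from 8 genes, and Ago1 and Ago4 had none. Signals of different probes depend on how well each binds, so that levels are not compared between probes. Signals of single arrays are given before normalization, and log2 values after it. The mean signal of an array ran from 468 to 564 on slide 1 and from 472 to 718 on slide 2. A difference in signal and its log2 fold change can therefore differ in sign.

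**Figure D1:**
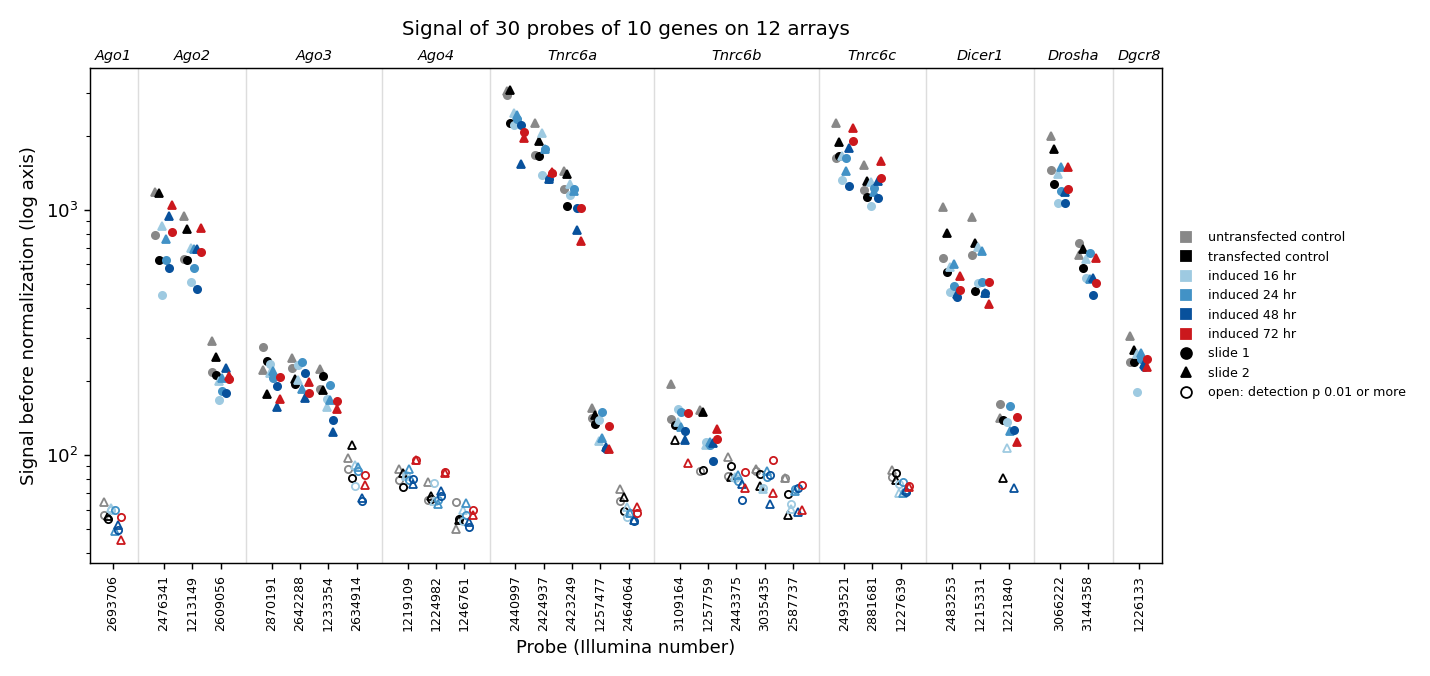
Signal before normalization (log axis, arbitrary units) of all 30 probes on the 12 arrays, grouped by gene. Circles are slide 1 and triangles slide 2, colours are the 6 groups, and open symbols have a detection p of 0.01 or more. The 10 probes detected on no array lie between 45.0 and 110.4, and every probe of Ago1 and Ago4 is among them.

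The Argonaute genes divided into detected (Ago2, Ago3) and undetected (Ago1, Ago4). Ago1, Ago3 and Ago4 lie side by side on chromosome 4 (chr4:126435012-126468707, chr4:126326994-126431670 and chr4:126489487-126533586, GRCm38.p6), and Ago2 lies on chromosome 15 (chr15:73101625-73184947). The only Ago1 probe, ILMN_2693706, had signals of 45.0 to 64.5 and detection p-values of 0.441 to 0.955 over the 12 arrays. No statement on the level of Ago1 mRNA follows from a probe at background.

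Ago4 was also undetected, although its signals at 72 hr stood apart. Probe ILMN_1219109 of Ago4 had 95.9 and 95.3 (slides 1 and 2) in the 72 hr cells, against 74.0 and 84.7 in the transfected control. Probe ILMN_1224982 had 85.6 and 84.9 in the 72 hr cells, against 66.3 and 68.3 in the transfected control. In both probes the arrays at 72 hr had the highest signals of all 12, without overlap with any other group. Their detection p-values there were 0.0192 to 0.0214 and 0.0406 to 0.0481, so that both groups were not well above background and no fold is given. The remaining Ago4 probe, ILMN_1246761, had signals of 49.8 to 64.4, with the highest in an untransfected control.

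Ago2 was measured by 3 probes, all detected on every array. The first, ILMN_2476341, had signals on slides 1 and 2 of 791 and 1183 in the untransfected control, 623 and 1175 in the transfected control, 449 and 862 at 16 hr, 627 and 765 at 24 hr, 579.8 and 946 at 48 hr, and 815 and 1051 at 72 hr. The second, ILMN_1213149, had 629 and 946 in the untransfected control, 627 and 833 in the transfected control, 511 and 699 at 16 hr, 581 and 697 at 24 hr, 475 and 692 at 48 hr, and 676 and 843 at 72 hr. The third, ILMN_2609056, had 218 and 292 in the untransfected control, 212 and 252 in the transfected control, 168 and 199.8 at 16 hr, 183 and 206 at 24 hr, 180.1 and 227 at 48 hr, and 205 and 211 at 72 hr. Slide 2 read above slide 1 in all 6 groups for each probe, by a mean of 0.51, 0.31 and 0.24 on the log2 normalized scale. In the first and second probe the signals at 16 hr overlapped those of the transfected control across slides, and in the third they lay below both control arrays.

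At 16 hr all 3 Ago2 probes read lower than in the transfected control on both slides, and none passed the test. The log2 fold changes were −0.37 (SE 0.32), −0.18 (SE 0.22) and −0.32 (SE 0.21), each with an adjusted p of 1 from limma. With single arrays left out of the fit without the slide, the value of ILMN_2476341 ran from −0.82 to 0.082, turning its direction without induced 16 hr replicate 1. With the slide in the fit the SE of ILMN_2476341 was 0.18 and the 95% interval ran from −0.76 to 0.017, and the adjusted p stayed at 1. Set against the untransfected control it stood at −0.41, also with an adjusted p of 1. The responses of the 3 probes differed by −0.19 to 0.14 between pairs, and no such difference passed (adjusted p of 0.986 or more with the slide, limma).

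At 72 hr the Ago2 probes stood at 0.21, 0.14 and −0.10 on the log2 scale against the transfected control. Between 72 and 16 hr the difference was 0.58 for ILMN_2476341, with 0.86 on slide 1 and 0.31 on slide 2. It passed in limma with the slide in the fit (SE 0.18, adjusted p = 0.0399) and did not pass without it (SE 0.32, adjusted p = 0.290). The other probes of Ago2 gave 0.32 and 0.22, higher on both slides as well, and did not pass (adjusted p = 0.150 and 0.386 with the slide). When any of the 4 arrays compared was left out, the call for ILMN_2476341 was lost. The difference with the slide was then 0.35 when induced 16 hr replicate 1 was absent (adjusted p = 0.317), 0.49 for induced 72 hr replicate 1 (0.126), 0.82 for induced 16 hr replicate 2 (0.0832) and 0.67 for induced 72 hr replicate 2 (0.0927).

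Ago3 was detected by 3 of its 4 probes on all arrays, and at 16 hr these had opposite signs. At that time ILMN_2870191 and ILMN_2642288 had log2 fold changes of 0.26 and 0.26, and ILMN_1233354 had −0.27. The last had 169 and 157 at 16 hr, against 209.9 and 185 in the transfected control, without overlap before normalization. On the log2 normalized scale its means were 6.90 (SD 0.13) at 16 hr and 7.17 (SD 0.31) in the transfected control. There the groups overlapped across slides. Its lowest signals were those at 48 hr, 139.5 and 125, where the log2 fold change was −0.47 (adjusted p = 0.176 with the slide, limma). ILMN_1233354 differed in its 16 hr response from each of the others by 0.53, at unadjusted p-values of 0.0447 and 0.0334 with the slide, and neither difference passed after adjustment over all pairs (0.955 in limma). At 72 hr all 3 kept probes read lower, at −0.10, −0.031 and −0.31, and no pair of Ago3 probes passed in any comparison (adjusted p of 0.262 or more with the slide). The undetected probe of Ago3, ILMN_2634914, had detection p-values of 0.0267 to 0.191.

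**Figure D2:**
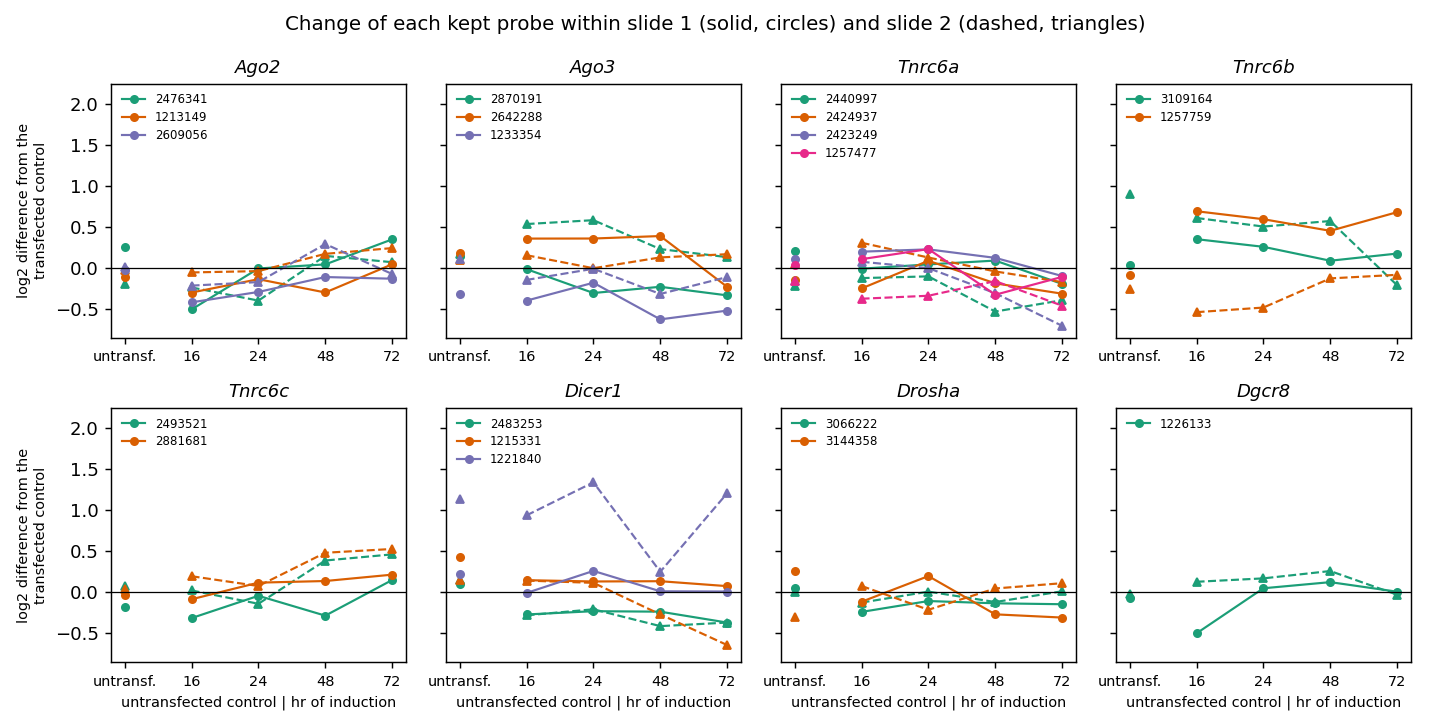
Log2 difference of each of the 20 kept probes from the transfected control of the same slide, for the untransfected control and the 4 times of induction in hr. Solid lines with circles are slide 1, dashed lines with triangles are slide 2, and each colour is a probe named by its Illumina number. The 4 Tnrc6a probes end below 0 on both slides at 72 hr and the Tnrc6c probes above it, while ILMN_1221840 of Dicer1 reaches 1.21 on slide 2 and 0.010 on slide 1.

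Among the GW182 genes, Tnrc6a read lower and Tnrc6c higher at 72 hr, in all of their kept probes and on both slides, and none of these probes passed the test. Tnrc6a (chr7:123031101-123195296) had 4 kept probes and 1 undetected probe. Probe ILMN_2440997 had 2081 and 1968 at 72 hr, against 2269.5 and 3086 in the transfected control. Probe ILMN_2424937 had 1416 and 1432 at 72 hr, against 1667 and 1912 in the transfected control. In neither did the groups overlap. Probe ILMN_2423249 had 1020.2 and 748 at 72 hr, against 1036 and 1397 in the transfected control, so that the groups were close on slide 1 and far apart on slide 2. The dimmer ILMN_1257477 had 132 and 106 at 72 hr, against 134 and 146 in the transfected control. The log2 fold changes of these probes were −0.29, −0.24, −0.40 and −0.28 in the order given, with adjusted p-values of 0.0885 to 0.365 from limma with the slide. Without induced 72 hr replicate 1, ILMN_2423249 passed at −0.60 (adjusted p = 0.0244 with the slide).

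Between 72 and 16 hr, ILMN_2423249 of Tnrc6a fell by 0.54 on the log2 scale. It had 1020.2 and 748 at 72 hr, against 1149.5 and 1280.5 at 16 hr, without overlap. The fit with the slide called it (SE 0.16, adjusted p = 0.0306, limma) and the fit without did not (SE 0.18, adjusted p = 0.105). At 72 hr it was also below 24 hr, by a difference of −0.51 (adjusted p = 0.0411 with the slide, 0.131 without). The other kept probes of Tnrc6a gave −0.23, −0.27 and −0.15 between 72 and 16 hr and did not pass. The call for ILMN_2423249 between 72 and 16 hr was lost without induced 72 hr replicate 2 (−0.34, adjusted p = 0.259 with the slide), induced 16 hr replicate 2 (−0.45, 0.243) or induced 16 hr replicate 1 (−0.63, 0.0726). It held without induced 72 hr replicate 1 (−0.74, 0.00915).

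Tnrc6c (chr11:117653703-117763439) had 2 kept probes of 3. Probe ILMN_2493521 had 1911 and 2167 at 72 hr and 1327 and 1662 at 16 hr, against 1669 and 1891 in the transfected control. Probe ILMN_2881681 had 1357 and 1586 at 72 hr and 1043 and 1303 at 16 hr, against 1128 and 1312 in the transfected control. For both probes the 72 hr arrays were above the 16 hr arrays without overlap. Against the transfected control the log2 fold changes at 72 hr were 0.31 and 0.37 (adjusted p = 0.215 and 0.0863 with the slide, limma), and between 72 and 16 hr they were 0.45 and 0.32 (0.0754 and 0.140).

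Tnrc6b (chr15:80711313-80941086) had signals near background. Its probe ILMN_3109164 had 93.0 to 195 and ILMN_1257759 had 86.0 to 152, each with a detection p under 0.01 on 10 arrays, and the other 3 probes were undetected. The kept probes are annotated to different transcript records. At 72 hr their log2 fold changes were −0.017 and 0.30 (SE 0.31 and 0.38). In either probe an undetected array of the transfected control was part of that comparison. For ILMN_3109164 an undetected 72 hr array, with a signal of 93.0, was part of it as well.

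Among the genes of miRNA processing, a probe of Dicer1 read lower in induced cells than in both controls. Dicer1 (chr12:104687740-104751968) had 3 kept probes. Probe ILMN_2483253 had 639 and 1029 in the untransfected control, 559 and 804 in the transfected control, 464 and 585 at 16 hr, 489.9 and 604 at 24 hr, 440.1 and 456 at 48 hr, and 470.5 and 537 at 72 hr. On each slide all 4 induced arrays were below both controls, while across slides the groups overlapped. The mean of the induced groups minus that of the controls was −0.36 on the log2 scale (0.779-fold), with −0.33 on slide 1 and −0.39 on slide 2. It passed in limma with the slide in the fit (SE 0.085, adjusted p = 0.0326) and did not pass without it (SE 0.12, adjusted p = 0.20). With single arrays left out the difference stayed between −0.38 and −0.34. The call was lost in 8 of these 12 fits, those without any 1 array of the controls, of 16 hr or of 24 hr (adjusted p = 0.0529 to 0.181), and it held without any 1 array of 48 or 72 hr (0.0123 to 0.0493).

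The other Dicer1 probes stood at −0.17 and 0.16 in the same comparison of all induced groups with both controls and did not pass. ILMN_1215331 was at −0.095 on slide 1 and −0.24 on slide 2, and its difference from ILMN_2483253 did not pass, nor did that of ILMN_1221840 (adjusted p = 0.511 and 0.125 with the slide, limma). At 72 hr ILMN_1215331 had 509 and 413 at 72 hr, against 469 and 737 in the transfected control, a log2 fold change of −0.28 that came from slide 2 (−0.64) and was 0.076 on slide 1. ILMN_1221840 had 143 and 114 at 72 hr, against 139 and 81.0 in the transfected control, where the array with 81.0 had a detection p of 0.188. Its log2 fold change was 0.61 (SE 0.52), with 0.010 on slide 1 and 1.21 on slide 2. This probe had a detection p of 0.01 or more on 3 arrays of slide 2, the transfected control among them, and its slide 2 minus slide 1 difference averaged −0.86, lower on slide 2 in all 6 groups. The annotation pairs it with a cDNA clone record and the other Dicer1 probes with a shared transcript record.

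Against the untransfected control, both ILMN_2483253 and ILMN_1215331 of Dicer1 were lower at 72 hr, with log2 differences of −0.50 and −0.57. With the slide in the fit both passed (adjusted p = 0.0245 and 0.0418 in limma, where 19.8% of all probes passed), and without it neither did (0.132 and 0.122). ILMN_1221840 was then at −0.073. The fit of this reference with the slide was added after the data were seen, and these cells differ from the induced cells in the plasmids as well as in induction.

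Drosha and Dgcr8, which make up the nuclear processing complex, showed no called change. Drosha (chr15:12824804-12935291) had signals of 1069.6 and 1407 at 16 hr and 1218 and 1496 at 72 hr, against 1280.4 and 1769.8 in the transfected control, in ILMN_3066222. The other probe of Drosha, ILMN_3144358, had 528 and 629 at 16 hr and 503 and 639 at 72 hr, against 583 and 693 in the transfected control. At both times the signals overlapped those of the control across slides. The 95% intervals of the log2 fold change at 72 hr with the slide ran from −0.34 to 0.21 and from −0.57 to 0.37, which leave changes of either sign open to these data. Dgcr8 (chr16:18253948-18289251), with the single probe ILMN_1226133, had 181 and 258 at 16 hr, against 239.6 and 268 in the transfected control, lower on both slides before normalization. On the log2 normalized scale its differences had opposite signs, −0.50 on slide 1 and 0.13 on slide 2. At 72 hr its log2 fold change was −0.011.

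**Figure D3:**
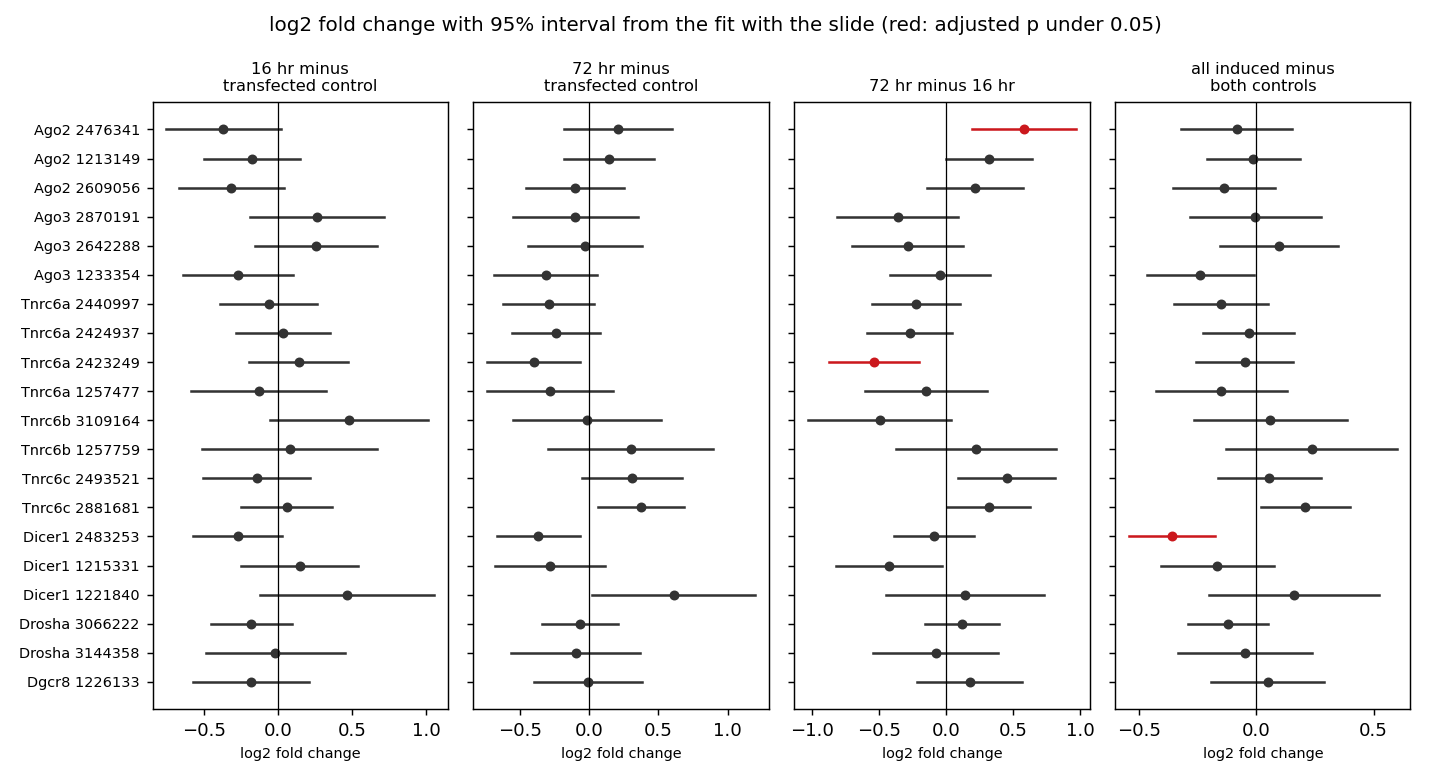
Log2 fold change of the 20 kept probes in 4 comparisons (16 hr and 72 hr minus the transfected control, 72 hr minus 16 hr, and all induced minus both controls). Points are the estimates and bars their 95% intervals from the fit with the slide, in red where the adjusted p is under 0.05. Red marks 2 probes between 72 and 16 hr (Ago2 at 0.58 and Tnrc6a at −0.54) and a Dicer1 probe over all induced groups at −0.36.

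Without the slide in the fit, 0 of the 20 member probes passed an adjusted p of 0.05 in any of the comparisons. Over all 17556 probes, 5.39% passed at 72 hr, 3.18% between 72 and 16 hr, 0.0228% for all induced against both controls, and 0% at 16, 24 and 48 hr and between the controls (limma). At an unadjusted p under 0.05 there were 0 of 20 at 16 and 24 hr and between the controls, 1 at 48 hr, 1 at 72 hr, 2 between 72 and 16 hr and 2 over all induced groups. Of all probes, 0.9%, 1.14% and 0.877% were under this p at 16 hr, at 24 hr and between the controls, 10.3% at 48 hr, 24.7% at 72 hr, 24.3% between 72 and 16 hr and 14.5% over all induced groups. With the slide, 2 of 20 passed between 72 and 16 hr (18.5% of all probes) and 1 of 20 over all induced groups (5.01% of all probes). The count with the slide was 0 at 16 hr (0.0057%), 24 hr (0.0114%), 48 hr (1.03%) and 72 hr (19%), and 0 between the transfected and the untransfected control (0.0057%). At an unadjusted p under 0.05 with the slide there were 0 of 20 at 16 hr (2.26% of all probes), 1 at 24 hr (3.14%), 3 at 48 hr (17.9%), 4 at 72 hr (34.1%), 5 between 72 and 16 hr (33.9%), 1 between the controls (2.63%) and 3 over all induced groups (23.1%).

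For the other pairs of times, fitted with the slide, the count was 0 of 20 between 24 and 16 hr (0%), 48 and 16 hr (0.199%), 48 and 24 hr (0.0171%) and 72 and 48 hr (0%), and 1 of 20, the Tnrc6a probe, between 72 and 24 hr (15.8%). The comparisons with 16 hr, 24 hr and the transfected control share arrays. At 72 hr the median log2 fold change of the 20 probes was −0.082, with 14 lower and 6 higher. Over all probes the median was −0.013, with 51.2% lower. For the 20 probes at 16 hr it was −0.042, with 11 lower and 9 higher, against 0.0015 and 49.6% lower for all probes. By role, the medians at 72 hr were −0.066 for 6 Argonaute probes, −0.13 for 8 GW182 probes and −0.082 for 6 processing probes. At 16 hr they were −0.22 for Argonaute, 0.043 for GW182 and −0.10 for processing probes. On both slides alike, 7 probes were lower and 5 higher at 72 hr, and 8 had opposite signs. Of all probes, 35.4% were lower and 33.5% higher on both slides.

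The probes of a gene were set against each other in 18 pairs, among 8039 such pairs on the array. The fold changes of a pair had the same sign in 9 of 18 at 16 hr (55.3% of all pairs), 13 of 18 at 72 hr (74.3%) and 14 of 18 between 72 and 16 hr (74.4%). At 72 hr Ago3, Tnrc6a, Tnrc6c and Drosha had all of their pairs in the same direction, and Ago2, Tnrc6b and Dicer1 did not. Without the slide 0 of 18 member pairs and 0 of all 8039 pairs differed in response in any comparison (limma). At most 1 member pair had an unadjusted p under 0.05, and the share of all pairs under this p is not given here. With the slide, 1 member pair passed at 72 hr (3.71% of all pairs), namely ILMN_2483253 and ILMN_1221840 of Dicer1. Their log2 fold changes were −0.37 and 0.61, a difference of −0.98 (SE 0.26, adjusted p = 0.0383, limma). The 0.61 includes the transfected control array of slide 2, on which ILMN_1221840 was not above background (detection p of 0.188), so that this difference is not a measured fold on both sides. Its SE without the slide was 0.60 (adjusted p = 0.695). The call rested on slide 2, since the difference was −0.71 when induced 72 hr replicate 2 was left out and −0.53 when transfected control replicate 2 was (adjusted p = 0.462 and 0.582 with the slide). It was −1.25 and −1.43 in the absence of replicate 1 of these groups (0.0233 and 0.0104). In the other comparisons with the slide the count was 0 of 18, at 16 hr (0%), 24 hr (0%), 48 hr (0.0498%), between 72 and 16 hr (3.88%), between the controls (0%) and over all induced groups (0.921%). In these, 1 to 4 member pairs had an unadjusted p under 0.05, for which the share of all pairs is not given here.

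The partners of these proteins were taken from lists, with the brightest kept probe of each gene, and of 12001 such features on the array 0% passed at 16 hr without the slide and 0.00833% with it. Of 26 genes that assist processing 22 could be tested, of 33 that load or modify Argonaute 27, of 30 that carry out silencing 26, and of the 3 Piwi relatives none. At 16 hr 0 list genes passed in limma in either fit. With the slide, 3 of the tested genes had an unadjusted p under 0.05. Of all kept probes 2.26% did, a share counted by probe rather than by gene. The 3 genes were Hnrnpa2b1 (0.39), an RNA-binding protein, Ipo8 (−0.36), an importin, and Gemin4 (−0.43), a subunit of the SMN complex.

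At 72 hr, where 5.6% of features passed without the slide and 19.6% with it, 1 higher and 0 lower processing partners passed without the slide, and 1 higher and 1 lower with it. Ddx17, an RNA helicase that works with Drosha, was higher (0.57, adjusted p = 0.0302 without and 0.00638 with the slide, limma). Hnrnpa1, an RNA-binding protein that binds some primary miRNAs, was lower with the slide in the fit (−0.73, 0.192 without and 0.0380 with). Of the list of loading and regulation, 1 passed in either fit, the lower P4hb (−0.86, 0.0225 without and 0.00164 with the slide). It encodes protein disulfide isomerase, a folding enzyme of the endoplasmic reticulum and a subunit of prolyl 4-hydroxylase. Cdc37, a co-chaperone of Hsp90, was at −0.57 and did not pass (0.133 without and 0.0625 with the slide).

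Of the silencing list, 2 higher and 0 lower passed at 72 hr without the slide, and 3 higher and 1 lower with it. Pan2, the catalytic subunit of a deadenylase that GW182 proteins recruit, was higher (0.85, adjusted p = 0.0404 without and 0.00890 with the slide, limma). So was Cnot2, a subunit of the CCR4-NOT deadenylase (0.62, 0.0466 without and 0.0139 with). Lsm14a, a component of processing bodies, passed with the slide alone (0.41, 0.0476), as did the lower Dcp2, the decapping enzyme (−0.66, 0.0400). The median log2 fold changes at 72 hr were 0.039 for processing partners, −0.059 for the loading list and −0.035 for the silencing list, against 0.00057 for all features.

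Between 72 and 16 hr, where 3.27% of features passed without the slide and 18.9% with it, 2 processing partners were higher and 1 lower with the slide, 1 gene of the loading list was lower, and 4 of the silencing list were higher. Adar, an enzyme that edits double-stranded RNA, had a difference of 0.96 (SE 0.21 and adjusted p = 0.00924 with the slide, 0.0948 without, limma). Ddx17 (0.54), Hnrnpa1 (−0.70) and P4hb (−0.70) had the same signs as at 72 hr, with adjusted p-values of 0.00924, 0.0458 and 0.00438 with the slide. The silencing genes were Pan2 (0.87), Cnot9 (0.53), Lsm14a (0.45) and Cnot2 (0.47), at 0.00868, 0.0336, 0.0347 and 0.0456 with the slide. Without the slide Ddx17, P4hb and Pan2 passed and the others did not.

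The genes whose pattern over the arrays was most like that of Ago2 were found among 9492 by the correlation with ILMN_2476341 over 12 arrays after the slide means were removed. These were Mxd1 (r = 0.90), Vps13b (0.89), Fgf12 (0.88), Traf6 (0.87) and Arid1a (0.87). The points share their arrays and normalization, and the values describe these arrays only. As their choice by likeness to this probe sets, all 5 read lower at 16 hr than in the transfected control, at −0.28 to −0.094, and higher at 72 than at 16 hr, at 0.26 to 0.48.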

How the data were processed

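The authors deposited unnormalized bead-averaged signal intensities of 12 arrays of MIN6 RNA. A detection p-value of each signal, in steps of 1 in 936, was deposited beside them. The authors also deposited normalized intensities (median 70.22 on every array, lumi being named in the submitters' processing notes with no version), used here as an alternative.

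The unnormalized signals went through neqc (offset 16, log2 scale, quantile normalization, background from detection p-values) in limma 3.58.1 and R 4.3.3. Each probe with a detection p below 0.01 on 2 or more arrays was a feature, 17556 in all. The platform annotation gives 34885 probes 1 symbol and 18 several, and 10378 are unnamed here. All 30 member probes matched a GRCm38.p6 gene table through their Entrez ID. Groups were compared in limma with a variance trend, two-sided, and p-values were adjusted over all kept probes (Benjamini-Hochberg, threshold 0.05), with 6 residual degrees of freedom, or 5 with the slide as a replicate block. Replicate numbers follow the slides, and same-numbered arrays deviated together in each of 15 group pairs (r of 0.223 to 0.623), so that the numbers pair the arrays. Probes of a gene were compared by the same fit of their difference within each array.

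Members and lists were chosen with earlier results of these data known. By rule, all members were described, with up to 4 genes per list and comparison by smallest p in the fit with the slide, and the 5 genes most like Ago2. Not all of them are named. Procedures were tested on simulated data with changes larger than those described here, which does not show how often smaller changes are missed. Plots were made in matplotlib 3.10.9 (Python 3.11.15). Probe positions within transcripts and miR-184 sites were not analysed here. The number of arrays limits the precision, and as the labels do not describe the separate cultures, p-values measure the spread between these arrays.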

Additional observations from a re-analysis of the deposited data

Results flagged for a closer look

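Times of induction differed, by the test of the difference with the slide in the fit, for 2 of 20 member probes between 72 and 16 hr, where 18.5% of all probes passed, and for 1 of 20 between 72 and 24 hr, where 15.8% did. ILMN_2476341 of Ago2 stood 0.58 higher on the log2 scale at 72 hr than at 16 hr (adjusted p = 0.0399, limma). ILMN_2423249 of Tnrc6a differed by −0.54 between 72 and 16 hr and by −0.51 between 72 and 24 hr (adjusted p = 0.0306 and 0.0411, limma). The other kept probes of both genes had the same sign between 72 and 16 hr and did not pass. Without the slide none of these differences passed (0.290 for Ago2, and 0.105 and 0.131 for Tnrc6a). Between 72 and 16 hr the call was lost in all 4 fits without an array of these groups for Ago2 and in 3 of 4 for Tnrc6a. The markers of other cells had a lower summed signal at 72 hr (5563 to 8680) than at 16 hr (16526 to 21458), and their part in these differences was not tested.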

How the results depend on the processing

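Over the alternatives tried, counts stayed within 1.5 times in 227 cases and moved in 24. A count of 0 that stayed at 0 was taken as unmoved, and most main counts were 0. This tally is therefore no measure of stability. Single-probe values kept direction and side of the threshold in 471 cases, lost the call in 17, gained one in 11 and turned in 5. These cases cover only probes with an unadjusted p under 0.05 in either fit, and ILMN_2476341 of Ago2 at 16 hr. Fits without 1 array leave 1 array in a group, so their counts of called probes are not given here. In the fit without the slide and without induced 72 hr replicate 1, ILMN_2423249 of Tnrc6a moved to −0.65 at 72 hr. Between 72 and 16 hr it moved to −0.79. Without a filter 1 was called at 72 hr, ILMN_1224982 of Ago4, detected on no array. The replicate block gave 2 between 72 and 16 hr (18.5% of all probes) and 1 over all induced groups (5.01%). It also added 1 between 72 and 24 hr (15.8%), ILMN_2423249 of Tnrc6a. For pairs of probes it gave 1 at 72 hr (3.71% of all pairs). An unpaired t-test over all induced groups, before adjustment, gave 2 (ILMN_2483253 of Dicer1 and ILMN_2881681 of Tnrc6c). It pooled all induced arrays against all control arrays, so that times, the different controls and the slides were treated as replicates. The share of all probes under this unadjusted p is not given here, and no conclusion is drawn from it. With the slide, leaving out single arrays gave 0 to 2 at 72 hr, 0 to 3 between 72 and 16 hr and 0 to 1 over all induced groups. The count of 3 came without induced 72 hr replicate 1 (ILMN_2423249 of Tnrc6a, ILMN_3109164 of Tnrc6b and ILMN_1215331 of Dicer1). With the slide and no filter the counts were 2 at 72 hr (both Ago4), 1 between 72 and 16 hr and 0 over all induced groups. More probes enter the adjustment there. The shares of all probes called without a filter are not given here, so these counts have no background beside them. The untransfected control as reference gave 2 at 72 hr with the slide (19.8% of all probes) and 0 without (6.53%). Without the slide in the fit, ILMN_2476341 of Ago2 at 16 hr ranged from −0.82 to 0.082 with single arrays left out, and ILMN_1221840 of Dicer1 from −0.18 to 1.404 at 72 hr and from −1.48 to 0.11 between the controls. ILMN_1221840 was at −0.073 at 72 hr against the untransfected control in either fit. The cause of these turns was not tested. Under another offset, no background correction, median scaling or the authors' normalized values, 18 to 20 of 20 member probes kept their direction in each comparison. Against the untransfected control 17, 14, 16 and 18 of 20 did at 16, 24, 48 and 72 hr, with a median of −0.13 at 72 hr. Low signal limits Ago1, Ago4, Tnrc6b and ILMN_1221840 of Dicer1, and with 2 arrays per group the lack of a call does not show that a gene did not change.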
